A study of Mus musculus with 90 samples.

Results

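The 8 genes described here, Cux2, Rorb, Lamp5, Fezf2, Bcl11b, Tbr1, Foxp2 and Neurod6, are widely used to tell the layers and the excitatory neurons of the mouse cerebral cortex apart. They were chosen by name, with earlier results of these data known. Each of the 8 symbols matched 1 row among the 37991 gene rows of the count table, and each passed the filter on low counts in all 3 regions. The Ensembl identifiers of the rows are ENSMUSG00000042589 for Cux2, ENSMUSG00000036192 for Rorb, ENSMUSG00000027270 for Lamp5, ENSMUSG00000021743 for Fezf2, ENSMUSG00000048251 for Bcl11b, ENSMUSG00000035033 for Tbr1, ENSMUSG00000029563 for Foxp2 and ENSMUSG00000037984 for Neurod6. They were followed through RNA sequencing libraries of frontal cortex, amygdala and hypothalamus from resident male mice of the C57BL/6J strain, each of which had lived with a female and then either met a BALB/c male held in a wire mesh cage or the same cage with a paper cup in it. Exposure lasted 5 min, and the brains were taken 30, 60 or 120 min later. This gave 18 groups of 3 to 6 libraries, 90 in all, and the labels name 1 animal for each library, while the series text speaks of pooled RNA. The mice carried no engineered allele by their labels, and the whole dissected block was sequenced, so that fewer cells of a type and less RNA per cell cannot be told apart.

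Excitatory neurons of the neocortex are stacked in layers, born from the inside out, and each layer sends its axons to its own set of targets. Transcription factors set up this order: CUX2 marks neurons of the upper layers that project within the cortex, RORB the layer that receives thalamic input, FEZF2 and BCL11B (CTIP2) the deep neurons that project out of the cortex, TBR1 and FOXP2 mainly the deepest, corticothalamic layer. NEUROD6 is a basic helix-loop-helix factor of cortical excitatory neurons at large, and LAMP5 is a membrane protein related to lysosomal proteins, used as a marker of upper-layer neurons and of a class of interneuron. None of the genes is confined to the cortex: BCL11B and FOXP2 are strongly expressed in striatal projection neurons, and FOXP2 also in intercalated cells of the amygdala.

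Promoter windows from RefSeq (GRCm38.p6) were found for 7 of the 8 genes, all but Foxp2. Those of Cux2, Rorb, Fezf2 and Neurod6 are shown because these were the genes whose level differed between times in frontal cortex; bases within annotated exons were left off. The sequences run 5′ to 3′ on the gene's strand, and capitals mark a match to one of the motifs named after them. All 4 lie on the minus strand, at chr5:122047892-122048075, chr19:19111197-19111446, chr14:12345960-12346115 and chr6:55681264-55681513 in this order.
Cux2: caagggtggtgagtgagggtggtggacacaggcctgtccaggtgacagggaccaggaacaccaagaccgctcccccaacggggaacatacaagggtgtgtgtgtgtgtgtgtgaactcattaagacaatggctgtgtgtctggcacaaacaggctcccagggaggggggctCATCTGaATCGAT
Rorb: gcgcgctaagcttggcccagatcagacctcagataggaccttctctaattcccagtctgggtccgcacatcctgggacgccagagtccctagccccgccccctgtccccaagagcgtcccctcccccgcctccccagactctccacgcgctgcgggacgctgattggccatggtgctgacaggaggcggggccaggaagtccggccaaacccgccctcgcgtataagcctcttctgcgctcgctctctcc
Fezf2: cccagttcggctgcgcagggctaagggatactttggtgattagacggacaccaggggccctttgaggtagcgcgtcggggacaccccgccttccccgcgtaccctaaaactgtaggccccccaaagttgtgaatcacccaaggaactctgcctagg
Neurod6: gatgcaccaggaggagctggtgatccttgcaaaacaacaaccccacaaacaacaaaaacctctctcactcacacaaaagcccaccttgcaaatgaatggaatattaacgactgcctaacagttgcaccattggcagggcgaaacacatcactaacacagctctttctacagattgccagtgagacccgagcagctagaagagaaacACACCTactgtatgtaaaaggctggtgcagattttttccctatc

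The motifs were searched on both strands in the 250 bases before each start site, in letters that stand for factors of the kinds encoded by these genes. The E-box CAGATG, bound by NeuroD factors, stood in the reverse orientation, CATCTG, 79 bases before the Cux2 start shown, 1 of 2 in RefSeq, and the Cux core ATCGAT 72 bases before it. The T-box half-site AGGTGT, in the reverse orientation, stood 44 bases before the Neurod6 start. Among all 32851 windows, 14.4% held the E-box, 0.728% the Cux core and 11.8% the T-box half-site. The ROR half-site AGGTCA (14.0% of all windows) and the forkhead core TGTTTAC (3.17%) were in none of the 10 windows of the layer genes. The motifs do not overlap one another. The GC content of the whole window was 66.0% at the Rorb start shown, 39.2% at the other Rorb start, 61.2% for Fezf2 and 46.0% for Neurod6, against a median of 52.4%.

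Gene reads per library ranged from 38.6 M to 58.9 M (median 49.0 M). Some libraries stood apart by markers of other tissue. Frontal cortex 120 min intruder 1 had 120 CPM of thalamic markers, against at most 62.6 in the other frontal cortex libraries, and 33.9 CPM of hypothalamic markers, against at most 7.40; it also had the lowest Rorb (37.9 CPM) and Tbr1 (124 CPM) of its region. Amygdala 60 min control 6 had the most striatal marker RNA of its region. Amygdala 60 min control 5 had 1742 CPM of choroid plexus markers, where the median of its region was 19.7. Hypothalamus 120 min control 6 had 321 CPM of thalamic markers, where the median was 72.0. All libraries were kept, and calls that were lost without 1 of them are given as such.

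In libraries of animals that met the empty cage, the layer genes were ordered by region, and not all had their peak in the cortex. Levels are given as CPM, read counts scaled to a common library size and for composition over all 90 libraries. Neurod6 had the steepest difference: 86.3 ± 12.9 CPM in frontal cortex (SD, n = 16), 12.9 ± 5.54 in amygdala (n = 15) and 0.803 ± 0.434 in hypothalamus (n = 13), where 13 to 79 reads per library were counted. Lamp5 followed the same order, with 293 ± 49.4, 74.7 ± 12.5 and 18.2 ± 4.63 CPM. So did Tbr1, with 164 ± 11.5, 66.17 ± 18.04 and 8.82 ± 5.15 CPM, and Fezf2, with 31.1 ± 7.32, 8.79 ± 4.93 and 2.91 ± 0.704 CPM. The hypothalamic Tbr1 level ranged from 1.08 to 20.4 CPM between control libraries, the widest relative range of any of the genes there.

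The upper-layer factors differed less between regions. Cux2 stood at 121 ± 22.1 CPM in frontal cortex, 49.0 ± 7.96 in amygdala and 32.8 ± 4.88 in hypothalamus. Rorb stood at 62.29 ± 10.47 CPM in frontal cortex but was lower in amygdala, at 25.4 ± 2.25, than in hypothalamus, at 34.2 ± 3.07. No library of the amygdala controls (22.4 to 29.8 CPM) reached the median of the hypothalamus controls (33.8 CPM).

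Bcl11b and Foxp2 peaked in the amygdala. Bcl11b was at 117 ± 20.2 CPM there, against 70.9 ± 13.4 in frontal cortex and 18.5 ± 7.83 in hypothalamus. Foxp2 was at 31.2 ± 16.4 CPM in amygdala, 19.6 ± 3.36 in hypothalamus and 14.6 ± 4.53 in frontal cortex, the lowest of the 3. Its amygdala libraries spread over a 5.35-fold range, from 13.7 to 73.1 CPM, and overlapped those of both other regions.

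With edgeR's quasi-likelihood test across all 18056 genes tested in the control libraries, all 8 genes differed in each of the 3 pairs of regions, at a Benjamini-Hochberg adjusted p below 0.05. Most genes did: 67.8% of those tested differed between frontal cortex and amygdala, 82.2% between frontal cortex and hypothalamus and 72.3% between amygdala and hypothalamus. Against amygdala, frontal cortex was higher in 6 of the 8, from a log2 fold change of 1.30 ± 0.07 (SE) for Cux2 to 2.78 for Neurod6, and lower for Bcl11b (-0.71, adjusted p = 3.93e-06) and Foxp2 (-1.13, adjusted p = 5.76e-07). The share of genes called higher in frontal cortex in this pair was 33.2%. Against hypothalamus, frontal cortex was higher in 7 of the 8, up to 6.81 for Neurod6, where 40.8% of all genes were called higher, and lower for Foxp2 (-0.46, adjusted p = 0.022); without 1 library, hypothalamus 30 min control 3, that adjusted p was 0.0566. The animals gave tissue to more than 1 region, and with the animal as a block all 24 calls stood. The median over the 8 genes was 1.31 against amygdala and 2.66 against hypothalamus, where the medians over all genes were -0.01 and -0.01. The 8 were chosen as markers of cortex, with earlier results of these data known, so these medians only describe the set.

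**Figure D1:**
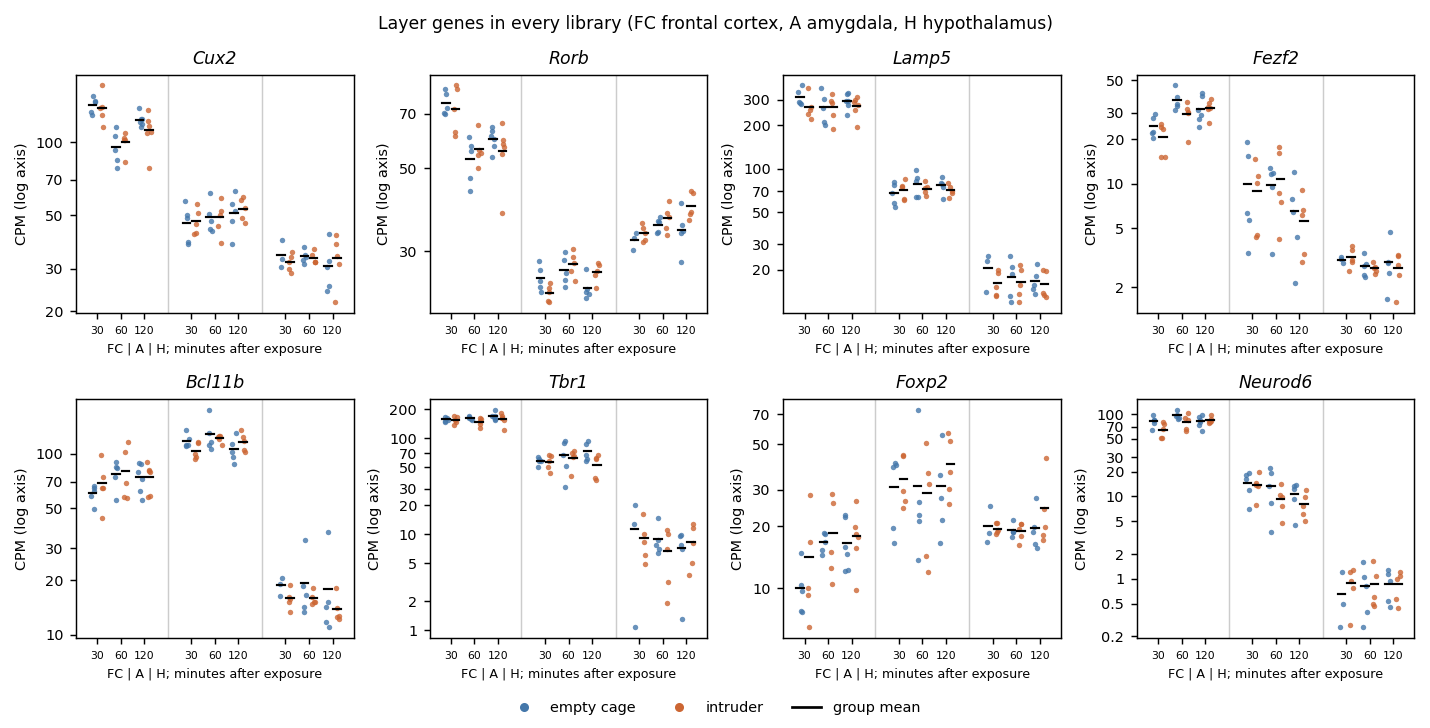
CPM (log axis) of each layer gene in every library, by region (FC frontal cortex, A amygdala, H hypothalamus) and minutes after exposure; points are libraries, blue for the empty cage and orange for the intruder, and bars are group means. Neurod6 falls from 86.3 CPM in frontal cortex controls to 0.803 in hypothalamus controls, while Bcl11b and Foxp2 are highest in amygdala.

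Levels of different genes can be set side by side only per length of transcript. Per kilobase of annotated exon, Lamp5 was the highest of the 8 in each region's controls, at 99.8 CPM per kb in frontal cortex, 25.5 in amygdala and 6.19 in hypothalamus. Neurod6 came second in frontal cortex, at 40.1 CPM per kb, and last in hypothalamus, at 0.374. Foxp2, which has the longest exon sequence of the group, was last in frontal cortex, at 0.894 CPM per kb, and in amygdala, at 1.91.

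Marker lists of other cells and regions were read in the same libraries. The 5 markers of cortical excitatory neurons (Slc17a7, Neurod1, Neurod2, Emx1 and Bhlhe22) summed to 1231 to 1845 CPM in frontal cortex, 271 to 1355 in amygdala and 7.94 to 33.1 in 27 of the 28 hypothalamus libraries. The remaining one, hypothalamus 120 min control 2, had 216 CPM and the highest Bcl11b of its region, 36.8 CPM. The 8 striatal markers (Drd1, Drd2, Adora2a and others) ranged from 277 to 2835 CPM in amygdala and from 259 to 1471 CPM in frontal cortex. Their part in the levels above was not tested.

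No difference between intruder and empty cage was detected for any layer gene after adjustment over all genes. Over 3 regions and 3 times, 72 differences were tested, each across all genes of its region, and none passed (edgeR). Of the 24 differences per region, those with an unadjusted p below 0.05 numbered 1 (frontal cortex), 2 (amygdala) and 1 (hypothalamus). In the same comparisons 0% of all genes passed in 7 of the 9, 0.538% in amygdala and 0.192% in hypothalamus at 120 min. These last shares depend on the fit: amygdala had 93 genes, 413 under DESeq2, 254 with the replicate block, 12 with no filter and 0 with the first index as a block or with only the 2 groups in the fit. Hypothalamus had 34 genes, 90 under DESeq2 and 0 with only the 2 groups. In frontal cortex no gene passed at any time, and 1074, 434 and 912 genes had an unadjusted p below 0.05 at 30, 60 and 120 min. The log2 differences of the layer genes ran from -0.34 to 0.49 in frontal cortex, from -0.51 to 0.37 in amygdala and from -0.42 to 0.44 in hypothalamus, with standard errors of 0.07 to 0.61. For none of the 8 genes did the intruder and control groups fail to overlap at any time in any region. Over all genes the share that did not overlap was 1.03%, 0.369% and 0.246% in frontal cortex, 0.776%, 0.376% and 3.13% in amygdala and 3.22%, 0.458% and 1.3% in hypothalamus at 30, 60 and 120 min.

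The smallest unadjusted p of the 72 belonged to Rorb in hypothalamus at 120 min, at 39.7 ± 3.22 CPM with the intruder and 34.3 ± 4.39 without (SD, n = 5 each; log2 difference 0.21 ± 0.07, adjusted p = 0.295). Endothelial markers summed to 55.8–88.0 CPM with the intruder and 88.7–105 CPM without in these groups, with no overlap. Their part in the Rorb difference was not tested. The next smallest p was that of Neurod6 in frontal cortex at 30 min, lower with the intruder, at 64.6 ± 13.4 against 81.8 ± 12.3 CPM (log2 difference -0.34 ± 0.13, adjusted p = 0.771). Rorb in amygdala was lower with the intruder at 30 min (-0.14 ± 0.07) and higher at 120 min (0.14 ± 0.06), with adjusted p = 1.00 and 0.294. The intruder's effect was not found to differ between times for any of the 8 genes in any region (24 tests across all genes), against 0% of all genes in frontal cortex, 0% in amygdala and 0.0113% in hypothalamus.

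**Figure D2:**
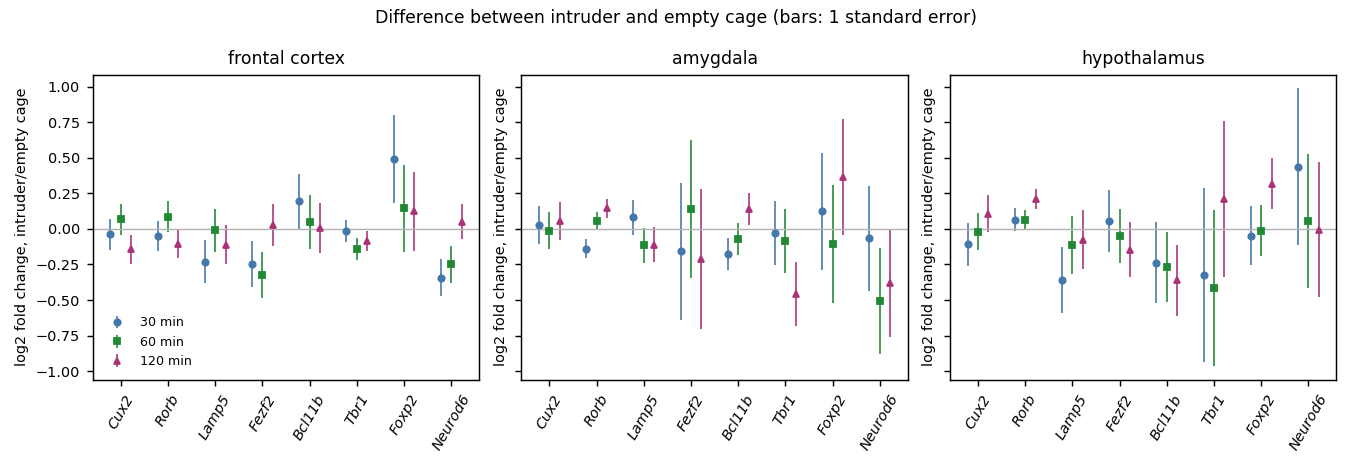
Log2 fold change between intruder and empty cage for each layer gene at 30, 60 and 120 min in each region; bars are 1 standard error. The values scatter on both sides of 0, and none of the 72 passed the test.

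Over the time after exposure, part of the set moved in frontal cortex, in shares near those of all genes. Between 60 and 30 min, 35.4% of all genes passed in controls and 45.5% with the intruder. The upper-layer factors Cux2 and Rorb were lower at 60 min than at 30 min, and the deep-layer factor Fezf2 was higher. The same 3 genes moved in the same directions in the intruder-exposed animals, which are other mice. In both conditions 30 min is also set apart by header tag and first index, as given below. The shared directions therefore cannot be told apart from an effect of the tag or the index. Lamp5, Tbr1, Bcl11b and Foxp2 passed in neither condition.

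Cux2 in the controls was at 155, 148, 133, 147 and 129 CPM at 30 min, at 84.3, 115, 92.9, 78.2 and 107 at 60 min, and from 116 to 138, with a median of 123, at 120 min. All 60 min libraries were below all 30 min libraries and below all 120 min libraries. With the intruder it was at 130, 115, 172, 140 and 139 CPM at 30 min and at 102, 104, 82.9, 102 and 109 at 60 min, again with no overlap, and from 78.5 to 136, with a median of 113, at 120 min, which overlapped both. The log2 difference between 60 and 30 min was -0.59 ± 0.11 in controls (adjusted p = 0.000205) and -0.48 ± 0.11 with the intruder (adjusted p = 0.000631).

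Rorb, the factor of the thalamus-recipient layer, was also lower at 60 min than at 30 min. In the controls it was at 72.4, 69.8, 79.2, 70.1 and 81.4 CPM at 30 min and at 43.5, 60.6, 55.7, 47.0 and 57.4 CPM at 60 min, with no overlap. The 120 min controls, from 53.6 to 64.7 CPM, were below every 30 min library and overlapped those of 60 min. With the intruder it was at 61.2, 72.2, 83.4, 62.5 and 81.6 CPM at 30 min and at 54.3, 56.1, 50.2, 54.8 and 65.5 at 60 min, where 1 library reached into the 30 min range. At 120 min it was from 37.9 to 66.3 CPM, with a median of 57.6, and overlapped both. The log2 difference was -0.51 ± 0.11 in controls (adjusted p = 0.000626) and -0.37 ± 0.11 with the intruder (adjusted p = 0.00537).

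Fezf2, which specifies the deep neurons that project below the cortex, moved the other way. In the controls it was at 21.9, 22.2, 27.6, 29.7 and 20.5 CPM at 30 min and at 34.5, 31.5, 38.2, 33.4 and 46.0 CPM at 60 min, with no overlap. With the intruder it was at 25.2, 15.0, 23.3, 24.2 and 15.2 CPM at 30 min and at 30.1, 30.6, 19.0, 31.9 and 35.5 CPM at 60 min, with 1 library of the later group inside the earlier range. Its log2 difference was 0.58 ± 0.16 in controls (adjusted p = 0.00582) and 0.51 ± 0.16 with the intruder (adjusted p = 0.0112). Leaving out frontal cortex 30 min control 5 moved its test over all 3 times in controls from an adjusted p of 0.018 to 0.0528, while the pair of 60 and 30 min still passed.

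Neurod6 passed in the intruder-exposed animals alone. It was at 75.2, 50.6, 79.9, 51.6 and 65.9 CPM at 30 min and at 66.2, 90.5, 62.8, 83.6 and 102 at 60 min, which overlap, and from 78.3 to 97.7 at 120 min. Against 30 min, the 60 min libraries differed by 0.32 ± 0.13 on the log2 scale (adjusted p = 0.0486). For the 120 min libraries this was 0.39 ± 0.13 (adjusted p = 0.0327). These calls were fragile: of the 32 fits that left out 1 library, 17 lost the first, with adjusted p up to 0.19 (without 60 min intruder 5), and 4 lost the second (without 120 min intruder 2 or 3, or 30 min intruder 2 or 4), up to 0.102. The call over all 3 times (adjusted p = 0.0308) was lost without 120 min intruder 2 (0.054), 30 min intruder 2 (0.118) or 30 min intruder 4 (0.118). With the replicate number as a block, the log2 differences were 0.30 at 60 min (adjusted p = 0.0572) and 0.36 at 120 min (0.05002), and neither passed. The 60 min call also ended with relative log expression (RLE) factors (0.0509) and with no filter on low counts (0.0609). In controls the difference between 60 and 30 min was 0.22 ± 0.13 (adjusted p = 0.189), and whether the conditions differ was covered by the test over times above, which Neurod6 did not pass.

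**Figure D3:**
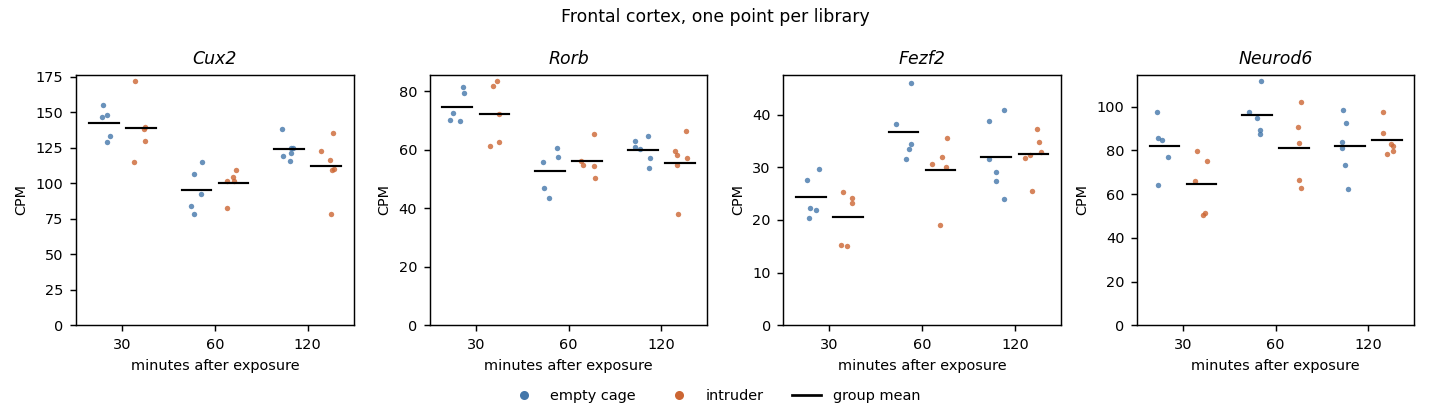
CPM of Cux2, Rorb, Fezf2 and Neurod6 in each frontal cortex library by minutes after exposure; points are libraries, blue for the empty cage and orange for the intruder, and bars are group means. Cux2 and Rorb drop from 30 to 60 min and Fezf2 climbs, in both conditions.

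The other 4 layer genes gave smaller or noisier values. Tbr1 was the steadiest, with a log2 difference between 60 and 30 min of 0.04 ± 0.08 in controls and -0.08 ± 0.08 with the intruder. Lamp5, an upper-layer marker, was at -0.24 ± 0.15 in controls and -0.02 ± 0.15 with the intruder. Bcl11b and Foxp2, deep-layer genes that striatum also expresses, were at 0.35 ± 0.19 and 0.73 ± 0.31 in controls, adjusted p = 0.155 and 0.0687. For Foxp2 the second value passed in 3 of 32 fits that left out 1 library, 30 min control 3 (adjusted p = 0.0332), 30 min intruder 2 (0.0368) or 30 min intruder 3 (0.0493). With the intruder Foxp2 was at 0.38 ± 0.31, and at 0.79 without 30 min intruder 2 (adjusted p = 0.0268).

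These counts have to be read against a large background. In frontal cortex 3 of the 8 genes passed over the 3 times in controls, where 33.4% of all 17091 genes did, and 4 of 8 with the intruder, where 46.1% did. Between 60 and 30 min, 3 of 8 passed in controls and 4 of 8 with the intruder, against 35.4% and 45.5% of all genes. These shares are near those of all genes, and whether they differ was not tested. In controls the groups at 60 and 30 min did not overlap for 3 of the 8, against 24.5% of all genes, and with the intruder for 1, Cux2, against 19.2%.

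Other genes with layer-restricted expression were taken from lists of 15 upper-layer and 24 deep-layer genes, of which 14 and 24 were tested. Between 60 and 30 min in controls, 8 of 14 upper-layer genes fell and none rose, with a median log2 difference of -0.32, while 12 of 24 deep-layer genes rose and 1, Sox5, fell, with a median of 0.36. Over all genes 18.1% fell and 17.2% rose, with a median of 0.00. With the intruder, 7 of 14 upper-layer genes fell and none rose (median -0.185), and 8 of 24 deep-layer genes rose and Sox5 fell (median 0.11), against 23.2% and 22.3% of all genes. Those counts moved with single libraries: 4 upper-layer genes fell without 60 min intruder 4, 5 deep-layer genes rose without 60 min intruder 3, and without 30 min intruder 3 the medians were -0.113 and 0.052. The deep-layer median was 0.172 without 30 min intruder 1 and 0.182 without 30 min intruder 2. The lists, like the 8 genes, were put together with earlier results of these data known and are given as a description.

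Among the upper-layer genes, Rasgrf2, a Ras exchange factor of layer II and III, fell by 0.72 in controls and 0.75 with the intruder on the log2 scale. Unc5d, a netrin receptor of late-born cortical neurons, fell by 0.73 and 0.82, and Nectin3, a cell adhesion molecule, by 0.54 and 0.73. Cux1, the paralog of Cux2, fell by 0.31 and 0.18. These 4 genes went the way of Cux2 in both conditions.

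Among the deep-layer genes, Crym, a thyroid hormone binding protein, rose by 1.28 in controls and 0.68 with the intruder on the log2 scale. Nxph4, a neurexin ligand of the deepest layer, rose by 1.42 and 0.91, and Pcp4, a calmodulin regulator of layer V, by 0.70 and 0.92. Cplx3, a complexin of subplate neurons, rose by 0.81 and 0.64. Sox5, a regulator of the deep-layer fate, went against its list, with falls of 0.43 and 0.45.

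**Figure D4:**
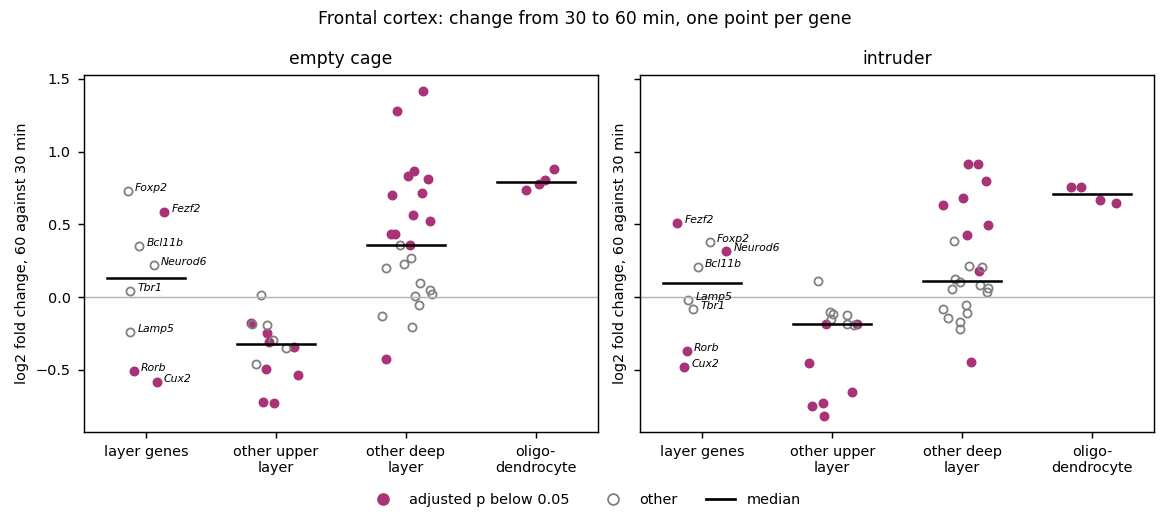
Log2 fold change from 30 to 60 min in frontal cortex for the 8 layer genes, the other upper-layer and deep-layer genes and 4 oligodendrocyte genes, in empty cage and intruder animals; points are genes, filled where the adjusted p is below 0.05, and bars are medians. Upper-layer genes lie mostly below 0 and deep-layer genes mostly above in both conditions.

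Markers of other cells moved in the same libraries. The 4 oligodendrocyte genes Mbp, Mog, Mag and Mobp, which encode myelin proteins, all rose from 30 to 60 min in both conditions, with a median log2 difference of 0.79 in controls and 0.71 with the intruder. Their summed level was 1913 to 2476 CPM in 30 min controls and 2917 to 4521 in 60 min controls, without overlap. The 4 olfactory bulb markers had medians of 1.00 in controls, where none passed, and 2.30 with the intruder, where 3 passed. The 8 striatal markers had medians of 0.86 in controls and 0.61 with the intruder, and none passed in either. Of 6 hippocampal markers 1 rose and 1 fell in controls, with a median of 0.41, and none passed with the intruder. Of 4 astrocyte markers 2 fell, and of 6 interneuron markers 2 rose, in each condition. The interneuron sum was 783–852 CPM in 30 min controls and 878–939 CPM in 60 min controls, without overlap. The cortical excitatory sum was 1461–1583 and 1605–1817 CPM, also without overlap, while the list's mean log2 CPM went from 6.14 to 6.04. With the intruder the sums of both lists overlapped between these times. The part of these cells in the layer genes' change was not tested.

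The time of 30 min is also set apart by name. In the table's header every 30 min library of every region carries the tag ISO and every library of 60 and 120 min the tag CERV, which the labels do not explain, and in frontal cortex no library of 30 min shares its first library index with one of 60 or 120 min. The 60 and 120 min controls share no first index either, while 2 of the 60 min controls share one with the 120 min intruder libraries. Each library also has a second index, and those recur at every time. A change after 30 min therefore cannot be told apart from whatever the tag or the first index stands for. Between 120 and 60 min, within 1 tag, Cux2 was higher at 120 min in controls (0.38 ± 0.11, adjusted p = 0.0178), where 15.9% of all genes passed and 8.84% were higher; it was the only one of the 8, and its groups did not overlap, as for 7.77% of all genes. Without frontal cortex 60 min control 5, 60 min control 1 or 120 min control 2, its adjusted p was 0.0831, 0.0551 or 0.0551. The first of these libraries had the most olfactory bulb marker RNA of its region. In the same pair 5 of 14 upper-layer genes rose and none fell, with a median of 0.24. The count was 2 without 60 min control 1 or 5 or 120 min control 2 or 3, and 3 without 120 min control 5 or 6. Of the 24 deep-layer genes 1 rose and 1 fell, with a median of -0.11. None of the 4 oligodendrocyte markers passed in this pair, where all 4 were lower at 120 min, with a median of -0.34. Of the 4 olfactory bulb markers 2 fell, with a median of -1.90. The part of these cells in the layer genes' difference was not tested. With the intruder the Cux2 difference was 0.17 ± 0.10 (adjusted p = 0.247), none of the 8 passed, and 22.9% of all genes did; with the first index as a block, which could be fitted for this pair, no gene passed (4655 at an unadjusted p below 0.05) and Cux2 was at 0.25 (adjusted p = 0.39).

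Between 120 and 30 min none of the 8 passed in controls, where 4.42% of all genes did, and Rorb came closest (-0.32 ± 0.10, adjusted p = 0.064; its groups did not overlap, as for 6.05% of all genes). Without frontal cortex 120 min intruder 1 it passed, at -0.32 (adjusted p = 0.026), as it did under DESeq2 (0.0344). With the intruder Cux2 (-0.31 ± 0.10), Rorb (-0.38 ± 0.10), Fezf2 (0.66 ± 0.16) and Neurod6 passed, against 17.7% of all genes. All 4 oligodendrocyte markers rose in that pair, with a median of 0.65, and summed to 1500–2460 CPM at 30 min and 2541–3977 CPM at 120 min, without overlap. In controls 1 of the 4 rose, with a median of 0.49. Their part in the layer genes' difference was not tested. Cux2 lost its call there without any 1 of 7 libraries, intruder 1, 4, 5 or 6 of 120 min and intruder 3, 4 or 5 of 30 min; the adjusted p was 0.151 without 30 min intruder 3 and 0.0902 without 120 min intruder 1, the library with thalamic and hypothalamic markers.

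In the other regions fewer of the layer genes passed over time. None of the 8 passed over the times in controls of amygdala, where 0.232% of all genes did (edgeR; 1881 genes at an unadjusted p below 0.05), or of hypothalamus, where 0.181% did (1747 genes). With the intruder, Rorb alone passed in amygdala (adjusted p = 0.0188), against 12.9% of all genes, and none passed in hypothalamus, against 1.49%. Rorb in amygdala was at 22.01, 23.3, 24.0, 21.9 and 24.7 CPM at 30 min and at 25.0, 28.0, 29.0, 26.6 and 30.3 CPM at 60 min, with no overlap, a log2 difference of 0.26 ± 0.07 (adjusted p = 0.0142). In that pair 7.41% of all genes passed and 8.77% did not overlap. Markers of other tissue also differed between these 2 groups. The hypothalamic markers summed to 31.9–62.0 CPM at 30 min and 14.6–23.6 CPM at 60 min, without overlap; all 8 tested were lower, at a median of -0.94, and none passed. The astrocyte markers summed to 984–1124 CPM and 1136–1185 CPM, also without overlap, and 2 of 4 rose. Their part in the Rorb difference was not tested. That call was lost without amygdala 30 min intruder 1, at an adjusted p of 0.0604. The call over all 3 times was lost without 30 min intruder 1 (0.0819) or 4 (0.0691), and with the first library index as a block (0.853). That block also ended the call of 60 against 30 min (0.15, adjusted p = 0.864), and with it 1 gene of all passed in the pair and 2 over the times.

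Rorb between 120 and 30 min with the intruder came near the threshold in both regions. In hypothalamus it was at 32.2, 35.7, 34.5, 31.8 and 33.5 CPM at 30 min and at 38.2, 36.3, 43.5, 42.8 and 37.8 CPM at 120 min. The groups did not overlap, as for 4.29% of all genes, and the log2 difference was 0.24 ± 0.07 (adjusted p = 0.0712), where 1.93% of all genes passed. It passed without 120 min control 2 (0.032), control 6 (0.0444) or intruder 2 (0.0416), and under DESeq2 (0.0284). In amygdala the difference was 0.19 ± 0.07 (adjusted p = 0.0512), where 15.0% of all genes passed, and it passed without 120 min intruder 6 (0.0488) or 60 min control 3 (0.0467), and under DESeq2 (0.0403). Endothelial markers moved over the same pair: in hypothalamus their sum ranged over 101–110 CPM at 30 min and 55.8–88.0 CPM at 120 min, and 4 of 4 markers fell. In amygdala it ranged over 111–147 CPM at 30 min and 62.1–94.1 CPM at 120 min, and 3 of 4 fell. Thalamic markers in hypothalamus reached 266 CPM at 120 min, in intruder 3, against at most 75.0 at 30 min. The part of either in the Rorb difference was not tested.

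Whether the course over time differed between regions was tested on the controls. It did for Rorb (adjusted p = 0.000666) and Cux2 (adjusted p = 0.0267), 2 of the 8, against 17.1% of all genes. For Rorb the difference between 60 and 30 min was -0.51 ± 0.11 in frontal cortex, 0.07 ± 0.06 in amygdala and 0.14 ± 0.08 in hypothalamus. For Cux2 it was -0.59 ± 0.11, 0.08 ± 0.13 and -0.03 ± 0.15 in the same order. The Cux2 call was lost without frontal cortex 60 min control 5 (adjusted p = 0.0791) or control 1 (0.0639). Control 5 was the library with the most olfactory bulb marker RNA of its region, and the part of that tissue was not tested.

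Within groups, the layer genes were set against markers of neighbouring tissue. Each gene's log2 CPM was set against the mean log2 CPM of 3 marker lists, as deviations from the group means, with permutation of libraries within groups and adjustment over all genes of the region (72 relations). In amygdala 7 of the 8 genes were correlated with each of the 3 lists, all but Rorb, but so were 45.3%, 46.3% and 46.4% of all genes for the cortical excitatory, striatal and thalamic lists. The Bcl11b relations ended by Spearman's rho, at an adjusted p of 0.131, 0.0589 and 0.134 in this order, and the one with the thalamic markers (0.0466) also with a prior count of 0.5 (0.0529).

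In amygdala Foxp2 rose and Fezf2 fell with the striatal markers, at Pearson r = 0.96 and -0.95 over 30 libraries (Spearman rho 0.95 and -0.93; permutation p = 1e-05 each, the smallest the resamples can give; adjusted p = 8.07e-05). Without the 2 libraries farthest from the median the values were 0.96 and -0.94. Foxp2 within the 60 min controls shows the size of it: 22.7, 21.1, 13.7, 26.1 and 73.1 CPM, where the last, control 6, also had the highest striatal sum of its region, 2835 CPM, and the lowest Neurod6 (3.75 CPM). Cux2, an upper-layer marker in cortex, rose with the striatal markers here (r = 0.81, rho 0.81), as did Lamp5 (0.71, rho 0.68), while Neurod6 (-0.71, rho -0.59) and Tbr1 (-0.51, rho -0.43) fell. For Tbr1 and Bcl11b (r = 0.59, rho 0.40) the relation no longer passed without the 2 farthest libraries, and the same held for the cortical excitatory markers, at an adjusted p of 0.0598 and 0.406.

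In frontal cortex the striatal markers were again followed by Bcl11b (r = 0.92, rho 0.90, 32 libraries, adjusted p = 0.000928) and Foxp2 (0.83, rho 0.85, adjusted p = 0.000928), both expressed in striatal projection neurons, where 8.46% of all genes were correlated. Fezf2 (-0.70, rho -0.69) and Neurod6 (-0.70, rho -0.68) went the other way. All 4 passed also without the 2 farthest libraries. Cux2, here at -0.44 (adjusted p = 0.114), had the opposite sign to amygdala; the difference between the regions was not tested.

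**Figure D5:**
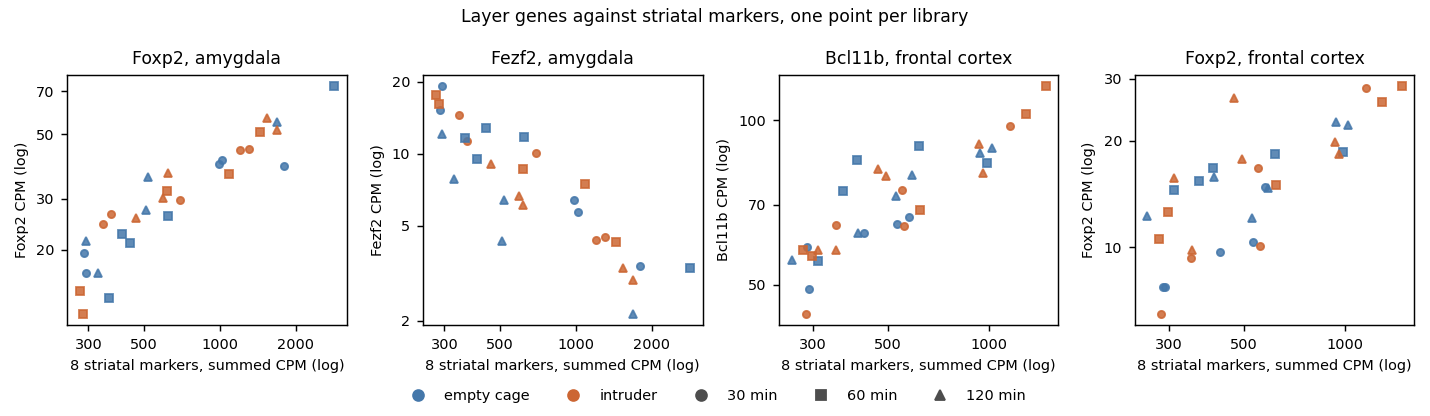
CPM of Foxp2 and Fezf2 in amygdala and of Bcl11b and Foxp2 in frontal cortex against the summed CPM of 8 striatal markers (both axes log), 1 point per library, with colour for condition and shape for time. Foxp2 climbs and Fezf2 drops with the striatal sum in amygdala, and the library at 2835 CPM has the highest Foxp2, 73.1 CPM.

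With the cortical excitatory markers, 7 of the 8 genes were correlated in frontal cortex, against 10.7% of all genes: Cux2 (r = 0.75, rho 0.71), Tbr1 (0.75, rho 0.68), Lamp5 (0.70, rho 0.69), Rorb (0.63, rho 0.55) and Neurod6 (0.59, rho 0.57) upward, and Foxp2 (-0.72, rho -0.69) and Bcl11b (-0.70, rho -0.74) downward. Without the 2 farthest libraries Cux2 (0.57), Foxp2 (-0.68) and Bcl11b (-0.73) still passed and the other 4 did not. With the thalamic markers 5 passed, against 12.2% of all genes, and without the 2 farthest libraries Foxp2 (0.74) and Bcl11b (0.75) did. In hypothalamus Cux2 alone was correlated, with the thalamic markers (r = 0.73, rho 0.63, 28 libraries, adjusted p = 0.0171), against 4.08% of all genes, and this was lost without the 2 farthest libraries (r = 0.49, adjusted p = 0.268). No gene at all passed there with the other lists.

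The genes whose pattern was most like each layer gene were looked up among the 15979 named genes tested in all 3 regions, as a description. Over the 18 group means, which mostly reflect region, Cux2 was most like Abcd2 (r = 0.996), Rorb like Cpne9 (0.977), Lamp5 like Fmnl1 (0.998), Tbr1 like Ephx4 (0.996), Fezf2 like Vxn (0.992), Bcl11b like Kcng1 (0.997), Foxp2 like Dlx5 (0.964) and Neurod6 like Otud1 (0.996). Over the deviations of the 32 frontal cortex libraries from their group means the closest genes were others. Bcl11b was nearest to Klhl13 (r = 0.97), Drd1 (0.96), a dopamine receptor of striatal neurons, and Gnal (0.96), the G protein subunit that couples it. Foxp2 was nearest to Rem2 (0.93), Mctp1 (0.92) and Syt6 (0.91), a synaptotagmin on the deep-layer list. Rorb was nearest to the potassium channel genes Kcns1 (0.91) and Kcnab3 (0.89), Lamp5 to Osbpl1a (0.93) and Snap25 (0.92), and Cux2 to Mras (0.90). Tbr1 was nearest to Actr1b (0.86), Fezf2 to Dkk3 (0.88), and Neurod6 to Vxn (0.92), the gene nearest to Fezf2 over the group means.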

How the data were processed

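Whole-number read counts per gene for 90 libraries were used as deposited by the authors, in 1 table of 37991 gene rows and 5 rows that name no gene. Per the submitters' processing notes, CASAVA 1.8.2, TopHat2 2.0.8, HTSeq 0.6.1 and edgeR 3.2.4 were used with build NCBIM37; their parameters and the annotation are not given in the sources used here. Per the labels' protocols the libraries were strand-specific and poly(A)-selected, with single-end reads. Reads assigned to genes numbered 38.6 M to 58.9 M per library (median 49.0 M). Reads assigned to no gene were 8.63% to 14.5% of each library and stayed out of library sizes. No 2 libraries of a group agreed within sampling noise (chi-square per degree of freedom at least 4.02).

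Counts were tested with edgeR 4.0.16 (TMM factors, filterByExpr, quasi-likelihood F test) in R 4.3.3, each region fitted apart with its 6 groups, and the control libraries of all regions together for region differences. P-values were adjusted by Benjamini-Hochberg over all genes tested, with a threshold of 0.05, and p-values measure the spread between labelled libraries. Fold changes are on the log2 scale with standard errors. Correlations used log2 CPM with a prior count of 2 and 100000 permutations, two-sided. DESeq2 1.42.0, limma voom 3.58.1, other size factors, no filter, blocks and leaving out each library were the alternatives. Both scripts for the fits and for the correlations were tested on simulated data. The genes named are the 8 layer genes, members of 15 marker lists, and the genes of most similar pattern by Pearson r. The genes and the lists were chosen with earlier results of these data known. The reference at hand is of another build than the counts, so gene coordinates are given only for the promoter windows. 1 oligodendrocyte marker is not reported here, and its list was summarised without it.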

Additional observations from a re-analysis of the deposited data

Results flagged for a closer look

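Each of the 8 genes was looked at in each of the 17 groups with 4 or more libraries, 136 cases. In 6 of them 1 library lay far from the rest, a share near the 1 in 20 that chance gives. Cux2 was at 82.9 CPM in frontal cortex 60 min intruder 3, against 101.8 to 109.4 in the others, and that library had the highest striatal marker sum of its region, 1471 CPM. Foxp2 was at 73.13 CPM in amygdala 60 min control 6, against 13.66 to 26.09, with a striatal sum of 2835 CPM. In hypothalamus 60 min control 6, Bcl11b was at 33.12 CPM, against 13.29 to 18.49, and Tbr1 at 14.82 CPM, against 6.329 to 8.759. That library had the highest sums of its region for striatal (279.1 CPM), choroid plexus (195.5 CPM) and interneuron markers (1593 CPM). Bcl11b was at 36.76 CPM in hypothalamus 120 min control 2, against 10.98 to 15.18, where the cortical excitatory markers summed to 216.3 CPM. Foxp2 was at 42.73 CPM in hypothalamus 120 min intruder 6, against 17.22 to 24.29. The part of the markers in these values was not tested.

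The course over time in control animals differed between regions for Rorb (adjusted p = 0.0006658, edgeR) and Cux2 (adjusted p = 0.02671). From 30 to 60 min the log2 differences in frontal cortex, amygdala and hypothalamus were -0.51, 0.07 and 0.14 for Rorb and -0.59, 0.08 and -0.03 for Cux2.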

How the results depend on the processing

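DESeq2, limma voom and upper-quartile factors kept the direction and the side of the threshold of all 47 single values called; RLE factors and no filter each ended 1 call, Neurod6 at 60 against 30 min with the intruder in frontal cortex, at log2 differences of 0.32 in both. Over all settings 315 of these values stayed and 16 lost their call, and none changed sign. Rorb over times in intruder-exposed amygdala, the only call there, gave 0 genes with the first library index as a block and 0 to 1 when single libraries were left out. The count of genes whose course differed between regions was 1 to 2 when single libraries were left out. Without the 2 farthest libraries the correlations called went from 16 to 9 in frontal cortex, from 21 to 17 in amygdala and from 1 to 0 in hypothalamus. The first-index block could not be fitted for the tests over all 3 times in frontal cortex and hypothalamus; it could for 120 against 60 min with the intruder in frontal cortex and for 60 against 30 min in hypothalamus. Same-numbered control and intruder libraries correlated at -0.503 to 0.557 over 41 pairs, and the numbers were not used as a pairing in the main fits. The range cannot settle whether they are one: in amygdala at 60 min the 4 pairs ran from 0.005 to 0.491. With the replicate block the counts over times were 3 in frontal cortex controls and 4 with the intruder, 1 in intruder-exposed amygdala and 0 elsewhere. Intruder against control gave 0. That block ended the Neurod6 calls in the pairs with the intruder, at log2 differences of 0.30 for 60 min and 0.36 for 120 min against 30 min. With the animal as a block, 24 region calls and 2 time-by-region calls stood. Depth limits Neurod6 in hypothalamus most, with as few as 13 reads.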
